A study of Sus scrofa with 15 samples.

Results

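A set of 3 genes was followed through late pregnancy and farrowing in the mammary gland of the sow. CD14 (ENSSSCG00000014369) and LY96 (ENSSSCG00000006175) belong to the first defence against bacterial lipopolysaccharide (LPS, or endotoxin). The other was a serum amyloid A candidate known only by its identifier, ENSSSCG00000013370. The 3 genes were selected on their measured rise at 1 d postpartum in these same libraries, out of 25322 genes in the count tables and 13503 that passed the filter on low counts, and all 3 members passed that filter. Their level at 1 d postpartum is therefore a description and carries no test here.

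The libraries came from mammary biopsies of 3 second parity crossbred sows (Danish Landrace × Yorkshire), chosen from a feeding trial for the highest colostrum yield. Tissue was taken 14, 10, 6 and 2 d before parturition and 1 d after it, which gave 15 libraries, 3 for each of 5 time points. The sows had each received a different feed, and effects of sow and feed cannot be told apart. By the usual length of pregnancy in the pig the trial feeds began after the first biopsy, so that in comparisons with 14 d prepartum the start of the feed and the time point cannot be told apart. Every sow had been through anesthesia, earlier biopsies and an anti-inflammatory drug (Banamine) by the later time points. The libraries held 10782343 to 19952918 counted reads each, and those of 1 d postpartum had the lowest median, 11416874.

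LPS in body fluids is picked up by the LPS-binding protein (LBP), handed to CD14 on the cell surface or in solution, and presented to the receptor TLR4, to which the small secreted protein LY96 (also called MD-2) is bound. The receptor then signals through the adaptor MYD88 to the transcription factor NF-κB. Serum amyloid A proteins are acute phase proteins of the liver that are also made in tissues, the mammary gland included, where a form of them is secreted into colostrum.

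In the genome build of the files (Sscrofa10.2), CD14 lies on the minus strand of chromosome 2, from 148291451 to 148293622, as a single exon of 2172 bases. LY96 lies on the minus strand of chromosome 4, from 67612435 to 67656172, with 1394 exonic bases in 7 annotated exons. The candidate lies on the plus strand of chromosome 2, from 44036240 to 44039539, with 515 exonic bases in 4 exons. No table used here pairs its identifier with a symbol. Between GTF2H1 and KCNC1 the count tables list 8 genes, of which the candidate is one, whereas the RefSeq table of another build (Sscrofa11.1) lists 10, with SAA1P, SAA2, SAA4 and SAA3 among them. The candidate was not given the name of any of these. Serum amyloid A genes are close copies of each other, reads that matched several places were not counted, and the split of reads between copies is uncertain.

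Before parturition the level of the candidate went up from biopsy to biopsy in each sow (in 8 of 9 steps on the scale of total counts), and its difference from 14 d prepartum was called at 2 d prepartum, whereas that from 10 d was not. No prepartum change of CD14 or LY96 passed the test. By 2 d prepartum each sow had between 17.4 and 25.9 times the level of the candidate that she had at 14 d prepartum. After parturition all 3 genes stood at their highest mean, but the sows differed. Sows 2 and 3 showed the large increase of CD14 and LY96, and in sow 1 LY96 remained inside the prepartum range. Whether the prepartum change of the candidate differed from that of CD14 or LY96 was not tested. Levels are given as CPM, that is counts-per-million of a library whose size was scaled with TMM (edgeR's trimmed mean of M-values). A gene is said to be called where its adjusted p was at most 0.05 both for the time comparison and for time overall. The main test treated the libraries as independent and did not use the pairing by sow.

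**Figure D1:**
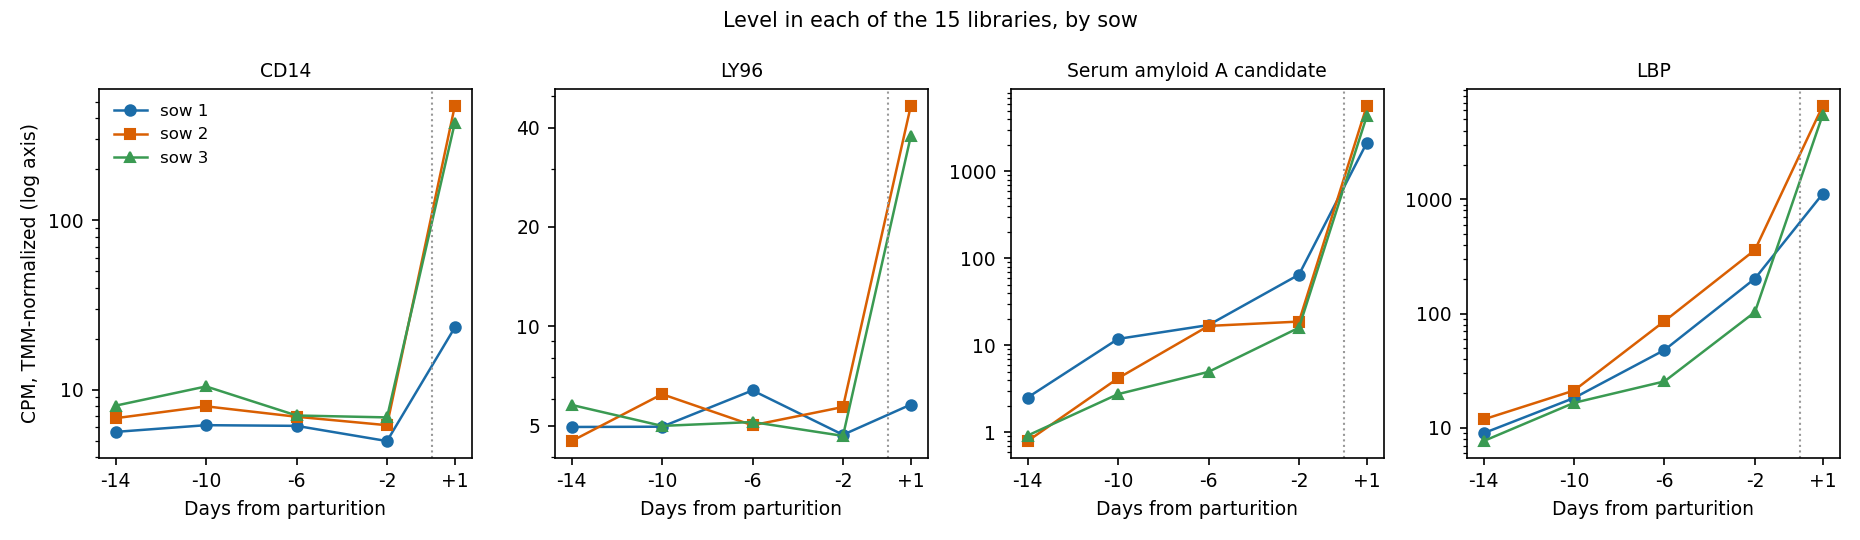
Levels of CD14, LY96, the serum amyloid A candidate and LBP in each library (TMM-normalized CPM, log axis, each panel with its own range) against days from parturition, with 1 line for each of the 3 sows and a dotted line at parturition. CD14 and LY96 run flat up to day -2 and are high at day +1 in sows 2 and 3, at 377 to 474 CPM for CD14, whereas the candidate and LBP climb from day -14 in every sow.

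CD14, the carrier of LPS that is known from monocytes and macrophages and also occurs in soluble form in milk, was read at a low level throughout late pregnancy. At 14 d prepartum the libraries of sows 1, 2 and 3 held 5.64, 6.79 and 8.05 CPM (mean 6.83 ± 1.21 SD, n = 3). The libraries of 10 d prepartum held 6.18, 7.98 and 10.5 CPM, and those of 6 d prepartum 6.12, 6.93 and 7.04 CPM. At 2 d prepartum the values were 4.98, 6.17 and 6.86 CPM, so that the libraries of each prepartum time point overlapped those of the others and sow 1 was the lowest at every one of them. None of the prepartum comparisons passed the test. The log2 fold change was 0.26 ± 0.67 (SE) for -10vs-14 and -0.03 ± 0.68 for -6vs-14. It was -0.19 ± 0.69 for -2vs-14 and -0.45 ± 0.69 for -2vs-10, with adjusted p between 0.795 and 1.00 in edgeR's quasi-likelihood test with Benjamini-Hochberg adjustment. The 95% interval of the -2vs-14 difference, on 10 residual degrees of freedom, ran from -1.74 to 1.36 on the log2 scale, which leaves room for a change in either direction at this depth of 86 to 216 reads per library.

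At 1 d postpartum CD14 stood at 23.3 CPM in sow 1, 474 CPM in sow 2 and 377 CPM in sow 3. These values rest on 137, 4784 and 5161 reads. All 3 lay above every prepartum library, of which the highest had 10.5 CPM, yet the library of sow 1 was far nearer to the prepartum libraries than to those of the other sows. From 2 d prepartum to 1 d postpartum the level rose 4.69-fold in sow 1, 76.9-fold in sow 2 and 55.0-fold in sow 3. Over the 3 sows the log2 fold change was 5.42 ± 0.75 (SE) in +1vs-14 and 5.61 ± 0.77 in +1vs-2, against a standard deviation of 2.42 between the 3 postpartum libraries on the log2 scale. The rise in sow 1 depended on the scaling. Scaled to total counts, without TMM, its postpartum library and the highest prepartum library both came to 12.7 CPM.

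LY96, the partner of TLR4 in LPS recognition, was the steadiest of the 3 genes in late pregnancy. In the order of sows 1, 2 and 3 its level was 4.95, 4.49 and 5.77 CPM at 14 d prepartum. The 10 d libraries held 4.96, 6.22 and 4.99 CPM. The next biopsies gave 6.39, 5.01 and 5.12 CPM at 6 d and, last before birth, 4.69, 5.69 and 4.65 CPM at 2 d. The highest of the 12 prepartum libraries was 1.42 times the lowest, compared with 2.10 times for CD14 and 81.9 times for the candidate. The 4 prepartum log2 fold changes of LY96 lay between -0.10 and 0.12, each with a standard error of at most 0.48, and with adjusted p between 0.946 and 1.00 none passed edgeR's test. The 95% interval of the -2vs-14 difference ran from -1.08 to 1.05.

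At 1 d postpartum LY96 was read at 5.79 CPM in sow 1, 46.6 CPM in sow 2 and 37.7 CPM in sow 3. The first of these came from 34 reads, with an exact 95% Poisson interval of 4.01 to 8.09 CPM that covers counting error only, and it lay within the prepartum range of 4.49 to 6.39 CPM. The other two, from 470 and 516 reads, lay far above it. Within sows the level rose 8.19-fold in sow 2 and 8.11-fold in sow 3 across parturition, and in sow 1 the ratio was 1.23, or 0.748 on the scale of total counts. The log2 fold change over the 3 sows was 2.59 ± 0.48 (SE) in +1vs-14 and 2.60 ± 0.48 in +1vs-2. The mean thus stood for sows 2 and 3, not for sow 1.

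The candidate was followed over the same biopsies. At 14 d prepartum sows 1, 2 and 3 had 2.52, 0.796 and 0.922 CPM, from 55, 19 and 19 reads. The biopsies of 10 d had 11.9, 4.20 and 2.76 CPM, and those of 6 d had 17.2, 16.8 and 4.98 CPM. At 2 d prepartum they had 65.2, 18.8 and 16.02 CPM, each above the highest library of 14 and of 10 d prepartum. The level went up in each sow from each biopsy to the next, 9 steps out of 9, which was so for 144 of the 13503 genes tested (1.07%). On the scale of total counts it went up in 8 of the 9 steps, since in sow 2 it stood at 17.2 CPM at 6 d but 15.6 CPM in the 2 d library.

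The prepartum time comparisons could be tested, and of these -2vs-10 shares no library with +1vs-14, on which the candidate was selected, whereas the others share the 14 d libraries. The log2 fold change was 2.16 ± 0.77 (SE) for -10vs-14 with adjusted p = 1.00, 3.19 ± 0.78 for -6vs-14 with adjusted p = 0.234, and 4.56 ± 0.80 for -2vs-14 with adjusted p = 0.0137 in edgeR's quasi-likelihood test. The last of these, a fitted 23.6-fold difference, was called, in a comparison that shares its baseline with the one that chose the gene. The candidate was 1 of the 384 genes called in -2vs-14, which were 2.84% of those tested (1.95% higher and 0.896% lower), while the -10vs-14 and -6vs-14 comparisons called 0% of genes each. Without adjustment 296 genes in the first and 1189 in the second had an edgeR p of at most 0.05. DESeq2 called the candidate in -6vs-14 as well, with adjusted p = 0.0116.

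In -2vs-10 the log2 fold change of the candidate was 2.40 ± 0.70 (SE), with adjusted p = 0.142, and 31 genes (0.230% of those tested) were called. With the sow as a block the same difference was 2.38 ± 0.56 with adjusted p = 0.0403, and was called. The block also raised the calls over all genes in -2vs-10 above these 31. The call in -2vs-14 was lost when the 14 d library of sow 2 or that of sow 3 was left out (adjusted p = 0.0805 and 0.0614), with log2 fold changes of 4.26 and 4.33.

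At 1 d postpartum the candidate reached 2138 CPM in sow 1, 5697 CPM in sow 2 and 4336 CPM in sow 3. These were 0.117%, 0.503% and 0.377% of all counts of the libraries, and every one was at least 32.8 times the highest prepartum library, at 65.2 CPM. Sow 1, the highest of the 3 sows at each prepartum time point, was now the lowest. From 2 d prepartum the level rose 32.8-fold in sow 1, 303-fold in sow 2 and 271-fold in sow 3. The log2 fold change was 11.48 ± 1.01 (SE) in +1vs-14, of which 4.56 had been reached at 2 d prepartum, and 6.92 ± 0.83 in +1vs-2. It was the third largest of the 13503 log2 fold changes in +1vs-14, whereas CD14 was in place 46 and LY96 in place 207. All 3 genes were among the called genes in +1vs-14 and in +1vs-2, which made up 23.7% (13.3% higher and 10.4% lower) and 15.2% of the genes tested. Nothing is read from this since the rise had chosen them, and with the 6 libraries of +1vs-2 alone LY96 was not called.

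Per exonic length the 3 genes could be set side by side. Their median level over the 12 prepartum libraries was 3.14 RPKM (CPM per kilobase of exon) for CD14, 3.58 RPKM for LY96 and 16.4 RPKM for the candidate. At 1 d postpartum the mean level was 134 ± 109 RPKM (SD, n = 3) for CD14, 21.6 ± 15.4 RPKM for LY96 and 7878 ± 3487 RPKM for the candidate. Before parturition the CD14 libraries, at 2.29 to 4.81 RPKM, and the LY96 libraries, at 3.22 to 4.58 RPKM, overlapped. After it CD14 stood above LY96 in the same library of each sow, at 10.7 against 4.15 RPKM in sow 1, 218 against 33.4 RPKM in sow 2 and 174 against 27.1 RPKM in sow 3.

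The neighbours of the candidate on chromosome 2 bear on how its reads were assigned. The gene ENSSSCG00000028525 (44078431 to 44082946, plus strand) had 193.6 to 1486 CPM before parturition, rose in 9 of 9 steps as the candidate did, and reached 32370, 30367 and 30354 CPM at 1 d postpartum in sows 1, 2 and 3. Its log2 fold change was 2.23 ± 0.38 (SE) in -2vs-14, with adjusted p = 0.0121, and 7.01 ± 0.47 in +1vs-14, with adjusted p = 2e-06 in edgeR's test. Unlike the 3 members, its postpartum libraries were almost equal in the 3 sows on the TMM scale, with a standard deviation of 0.05 on the log2 scale against 0.73 for the candidate. On the scale of total counts they came to 17637, 26817 and 26371 CPM, with sow 1 the lowest, as for the members.

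The other neighbour, ENSSSCG00000013369 (44024783 to 44025604, minus strand), was counted in 2 of the 3 sows. Sows 1 and 2 had 18.2 to 117 CPM of it before parturition and 1998 and 2227 CPM after it. Sow 3 had 0 to 2 reads in each of its 4 prepartum libraries and 37 reads, or 2.70 CPM, at 1 d postpartum, when the candidate in the same library had 59316 reads. Adding the reads of this gene to the candidate, an alternative chosen after seeing the data, gave log2 fold changes of 2.97 ± 1.18 (SE) in -2vs-14, with adjusted p = 0.170, and 8.63 ± 1.51 in +1vs-14. The prepartum call for the candidate thus did not hold for the sum. A further gene nearby, ENSSSCG00000021847, had at most 1 read in any library.

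**Figure D2:**
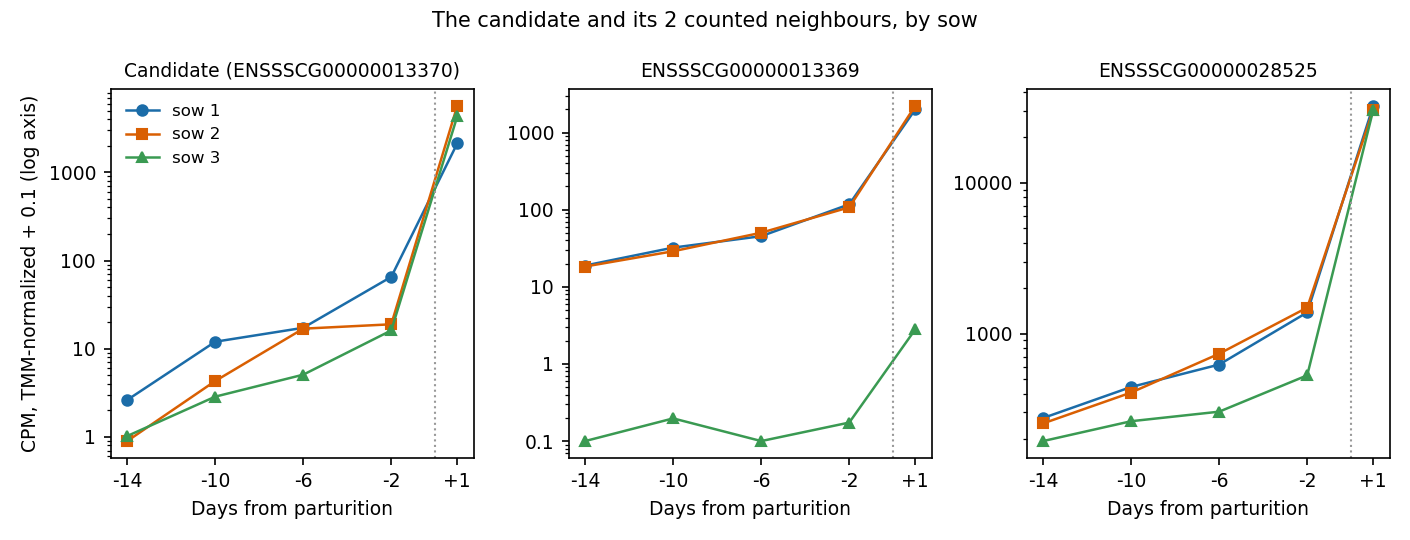
Level of the candidate and of its neighbours ENSSSCG00000013369 and ENSSSCG00000028525 (TMM-normalized CPM + 0.1, log axis, each panel with its own range) against days from parturition, 1 line per sow. ENSSSCG00000013369 stays near 0 in sow 3 at all 5 time points, while ENSSSCG00000028525 is at 30354 to 32370 CPM in all 3 sows at day +1.

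The 3 genes moved together between the libraries of 1 d postpartum as far as their order goes. In each of them sow 2 was the highest, sow 3 followed, and sow 1 was the lowest. Relative to the mean of the other two on the log2 scale, sow 1 was lower by 4.18 for CD14, 2.83 for LY96 and 1.22 for the candidate, and the median of all genes tested was -0.01. CD14 lay in the lowest 0.207% of genes by this difference, LY96 in the lowest 0.867% and the candidate in the lowest 7.01%. With 3 libraries no test of such an order can be made.

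The library of sow 1 at 1 d postpartum also stood apart in composition. The 10 genes with the most reads took 53.8% of its counts, compared with 30.5% and 33.6% in sows 2 and 3 at that time and 16.6% to 35.7% in the prepartum libraries. Its TMM factor was 0.545, against 0.884 and 0.870. Of the 1799 genes called higher in +1vs-14, 441 (24.5%) did not exceed their highest prepartum library in it, as LY96 did not, and this share was 24.7% for sow 2 and 26.4% for sow 3. On the scale of total counts the same shares were 77.1% for sow 1, 36.2% for sow 2 and 43.1% for sow 3. The part of these differences in the low CD14 and LY96 of sow 1 was not tested. Without this library the log2 fold change in +1vs-14 was 5.95 for CD14 and 3.04 for LY96.

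Over the 12 prepartum libraries the 3 genes were not found to move together. Pearson's r of log2 CPM was 0.17 for CD14 with LY96 (Spearman's rho 0.31), -0.55 for CD14 with the candidate (rho -0.48) and 0.02 for LY96 with the candidate (rho 0.15). The adjusted permutation p over the 3 pairs was 0.887, 0.198 and 0.952 for r and 0.482, 0.364 and 0.635 for rho. With the 2 libraries farthest from the median of the first gene left out, r was 0.24, -0.36 and -0.09. The libraries come from 3 sows and are not independent, so that these p-values are too small if anything. Without TMM the 3 values of r were 0.68, -0.73 and -0.63, with adjusted permutation p = 0.0199, 0.0199 and 0.0278, so the relation depended on the scaling. No pair was examined within a sow, which has 4 prepartum libraries.

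Among the other genes of LPS recognition, LBP rose before parturition, as the candidate did. In the order of sows 1, 2 and 3 it was read at 8.98, 11.9 and 7.67 CPM at 14 d prepartum, and 2 d before birth the 3 libraries held 203, 361 and 103 CPM, with a rise in 9 of 9 steps. At 1 d postpartum it was read at 1119, 6586 and 5514 CPM, and sow 1 was again the lowest. The log2 fold change of LBP was 4.54 ± 0.66 (SE) in -2vs-14 with adjusted p = 0.00595, 3.57 ± 0.63 in -2vs-10 with adjusted p = 0.0421, and 8.85 ± 0.80 in +1vs-14 with adjusted p = 1.1e-05 in edgeR's test. Thus the carrier that hands LPS to CD14 was upregulated before birth, at a time when CD14 itself had not passed the test.

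Smaller changes were measured for the receptor and its signalling partners. Of 33 tested genes of LPS sensing and TLR4 signalling other than the members, LBP alone was called in -2vs-14, beside 2.84% of all genes. In +1vs-14, 11 were called higher and 0 lower, beside 13.3% and 10.4% of all genes. Their median log2 fold change in +1vs-14 was 0.53, beside 0.02 for all genes. TLR4 was read at 13.9 to 17.7 CPM before parturition and at 22.3, 47.4 and 30.5 CPM after it in sows 1, 2 and 3, with a log2 fold change of 1.06 ± 0.20 (SE) and adjusted p = 0.00144. It showed the same low place for sow 1 on a much smaller scale. MYD88, the adaptor of the receptor, rose by a log2 fold change of 1.05 ± 0.19, with adjusted p = 0.00105. It was the highest in sow 1 on the TMM scale, where that library had a factor of 0.545 against 0.884 and 0.870. On the scale of total counts sow 1 was the lowest for MYD88 too. The NF-κB subunit NFKB1 (0.93 ± 0.26), its inhibitors NFKBIA (0.90 ± 0.14) and NFKBIE (0.81 ± 0.24), the chaperone of Toll-like receptors HSP90B1 (1.31 ± 0.26) and its partner CNPY3 (0.88 ± 0.13) were called too.

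These moderate changes depended on the scaling. Without TMM the median log2 fold change of all genes in +1vs-14 moved from 0.02 to -0.64, and 530 genes were called higher and 5158 lower, in place of 1799 and 1404. On that scale 2 genes of the list were called higher and 5 lower, and TAB2, TNFAIP3 and NFKBIB, 3 of the 11, changed sign. With the sow as a block 4 genes of the list were called in -2vs-14 in place of 1. The block also raised the calls over all 13503 genes in that comparison, above the 384 of the main test. The gain was therefore not particular to the list.

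Of 8 other Toll-like receptors tested, 1 was called in either comparison, beside 2.84% of all genes in -2vs-14 and, after birth, 23.7% in +1vs-14. This was TLR2, the receptor for bacterial lipoproteins, which uses CD14 as a co-receptor, and its log2 fold change was 2.21 ± 0.46 (SE) in -2vs-14 with adjusted p = 0.0255 and 2.92 ± 0.47 in +1vs-14 with adjusted p = 0.000534 in edgeR's test. Unlike the members, TLR2 was the highest in sow 1 at 1 d postpartum on the TMM scale, with 320 CPM compared with 203 and 172 CPM in sows 2 and 3. On the scale of total counts sow 1 was not the highest, but still stood above sow 3. The median log2 fold change of the 8 receptors was -0.13 in -2vs-14 and 0.21 in +1vs-14. Blocking by sow, 2 of the 8 were called in each of these comparisons, and the calls over all genes rose in both as well. The call of TLR2 in -2vs-14 was lost when any one of 5 libraries was left out, those of the 3 sows at 14 d prepartum and those of sows 1 and 2 at 2 d prepartum.

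Acute phase and antimicrobial proteins, the class to which serum amyloid A belongs, were for the larger part upregulated after birth. In -2vs-14, 2 of 16 tested were called higher (LBP and PIGR, which carries immunoglobulin A into milk) and 1 lower (lysozyme, LYZ). Of all genes 1.95% were called higher and 0.896% lower in that comparison. In +1vs-14, 11 were called higher and 1 lower, beside 13.3% and 10.4% of all genes. The median log2 fold change was 0.30 in -2vs-14 and 2.39 in +1vs-14, against -0.01 and 0.02 for all genes. With the sow as a block 5 were called in -2vs-14, and the calls over all genes rose as well. The largest in +1vs-14 after LBP were ceruloplasmin, CP (8.77 ± 1.28, SE), lipocalin 2, LCN2, which binds bacterial siderophores (5.97 ± 1.02), the calprotectin subunit S100A9 (5.43 ± 0.77) and complement C3 (4.77 ± 0.74). The mitochondrial superoxide dismutase SOD2 (3.52 ± 0.66), PIGR (3.33 ± 0.56) and C-reactive protein, CRP (2.55 ± 0.69), followed, the last with at most 1.87 CPM in any library.

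Several of these split the sows as CD14 and LY96 did. LCN2 was read at 11.2 to 17.7 CPM before parturition, and at 16.5, 1705 and 1205 CPM after it in sows 1, 2 and 3. SOD2 was read at 132 to 228 CPM before and at 211, 3163 and 3495 CPM after. Of the 11 acute phase genes called higher, sow 1 was the lowest at 1 d postpartum in 8, and in 5 (SOD2, LCN2, CP, STEAP4 and CFB) it did not exceed the highest prepartum library. PIGR went the other way, at 480 CPM in sow 1 compared with 100 and 136 CPM.

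Of 8 tested regulators of the acute phase response, 0 were called in -2vs-14, beside 2.84% of all genes, and 6 were called higher in +1vs-14, beside 13.3%, with a median log2 fold change of 1.29. Without TMM 3 were called higher in +1vs-14, beside 530 of all 13503 genes. CEBPD, a transcription factor known to drive acute phase genes, was read at 21.1 to 34.2 CPM before parturition and at 136, 430 and 343 CPM after it, with a log2 fold change of 3.48 ± 0.32 (SE) and adjusted p = 1.11e-05. STAT3, which relays the signal of interleukin 6, had a log2 fold change of 1.95 ± 0.20, and the interleukin 6 receptor IL6R one of 1.42 ± 0.31. NFIL3 (1.91 ± 0.17), JAK1 (1.15 ± 0.29) and JAK2 (0.52 ± 0.13) were called as well, and JAK2 changed sign without TMM. IL6 itself had 0 reads in all 15 libraries. In 5 of the 6 regulators sow 1 was the lowest of the 3 postpartum libraries.

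**Figure D3:**
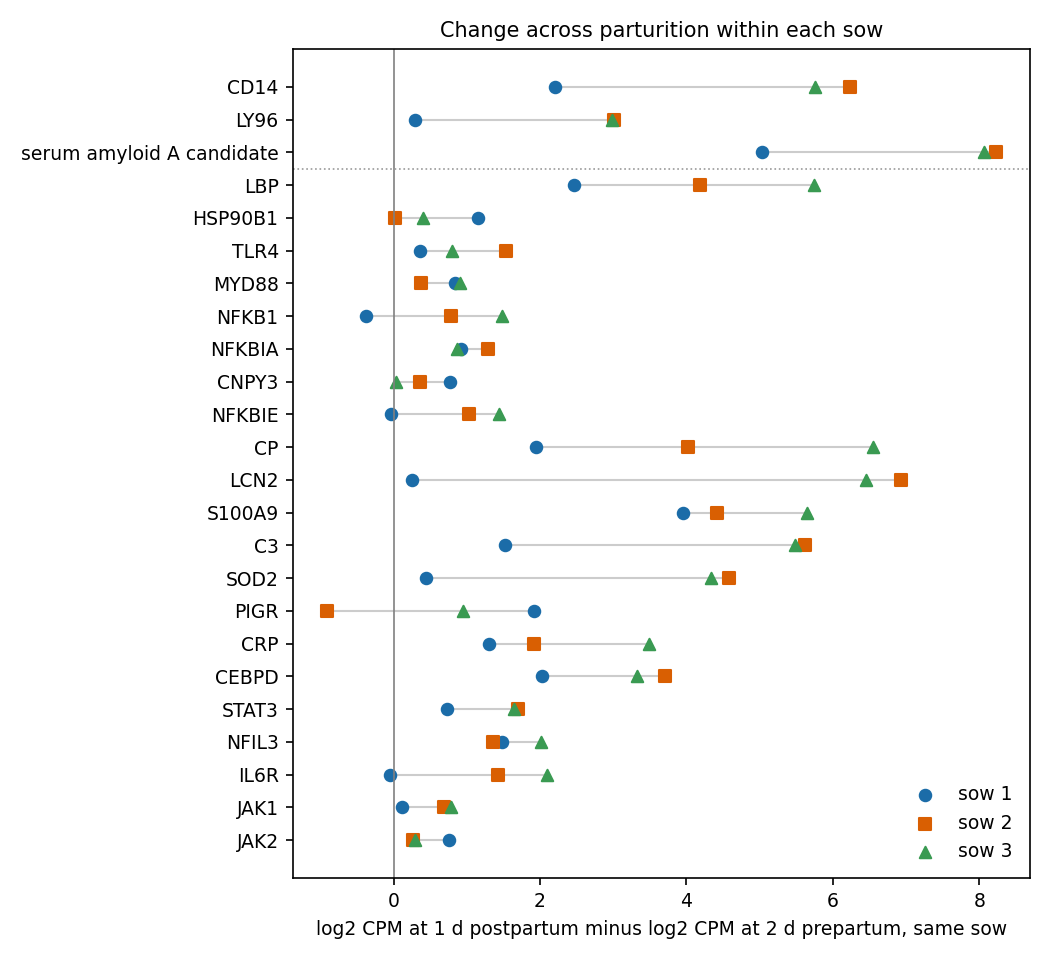
Difference in log2 CPM between 1 d postpartum and 2 d prepartum of the same sow for the 3 members (above the dotted line) and for the genes of the LPS, acute phase and regulator lists called higher in +1vs-14, up to 8 per list, with 1 symbol per sow. Sow 1 lies far to the left of sows 2 and 3 for CD14, LY96, LCN2, C3 and SOD2, and to the right of them for PIGR and HSP90B1.

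Because CD14 is a textbook marker of monocytes and macrophages, markers of these cells were set beside it. In bulk tissue, more cells of a type and more RNA per cell cannot be told apart. Of 25 tested markers of monocytes, macrophages and neutrophils other than CD14, 1 was called higher in +1vs-14 and 5 lower, beside 13.3% and 10.4% of all genes, with a median log2 fold change of -0.20. Without TMM 1 was called higher and 13 lower, beside 530 and 5158 of all 13503 genes. Their summed level was 440 to 498 CPM at 14 d prepartum and 383 to 461 CPM at 1 d postpartum, when CD14 alone went from 6.83 to 292 CPM on average. The general leukocyte marker PTPRC (-0.36 ± 0.11, SE), the integrin ITGAM (-0.75 ± 0.21) and the signalling adaptors FCER1G (-0.54 ± 0.16) and TYROBP (-0.54 ± 0.16) were called lower. The scavenger receptor MARCO and the neutrophil protein S100A8, with at most 20 and 51 reads in any library, were too rare to be tested. CD83, known from activated dendritic cells, was the marker of this list called higher. It was read at 2.72 CPM in sow 1 and at 20.9 and 23.9 CPM in sows 2 and 3 after parturition, compared with 1.79 to 4.01 CPM before it (log2 fold change 2.49 ± 0.50, adjusted p = 0.0021). S100A9, a calprotectin subunit known from neutrophils and counted above with the acute phase proteins, was called higher too. Of 13 lymphocyte markers 0 were called higher and 2 lower in +1vs-14, and of 16 stromal and endothelial markers 0 higher and 2 lower. Without TMM 6 of the lymphocyte markers and 13 of the stromal and endothelial markers were called lower, beside 5158 of all 13503 genes.

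Mammary epithelial markers, in contrast, included 9 of 19 called higher and 2 lower in +1vs-14, led by the milk genes LALBA and BTN1A1, and 6 higher and 1 lower in -2vs-14. Of all genes 13.3% were called higher and 10.4% lower in +1vs-14, and 1.95% and 0.896% in -2vs-14. Without TMM 6 of the markers were called higher and 4 lower in +1vs-14, beside 530 and 5158 of all 13503 genes. Their median log2 fold change in +1vs-14 was then -0.306, in place of 0.31 in the main test. Blocking by sow, 12 of the markers were called in -2vs-14, and the calls over all genes rose as well. By contrast, 3 markers were called with the 10 highest genes of any library removed, which takes 4 of the list away. Their summed level was 17680 to 22850 CPM in the 14 d libraries, and 92400 to 214200 CPM in those of 2 d prepartum. Caseins made up most of this sum, so it does not measure how many epithelial cells there were. CSN1S1 and CSN2 had means of 14820 and 2143 CPM at 14 d and of 60820 and 66230 CPM at 2 d prepartum. The median log2 fold change of the 19 markers in -2vs-14 was 0.35, and KRT18 was the marker called lower (-1.15 ± 0.23, SE). The part of epithelial content in the prepartum rise of the candidate was not tested.

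**Figure D4:**
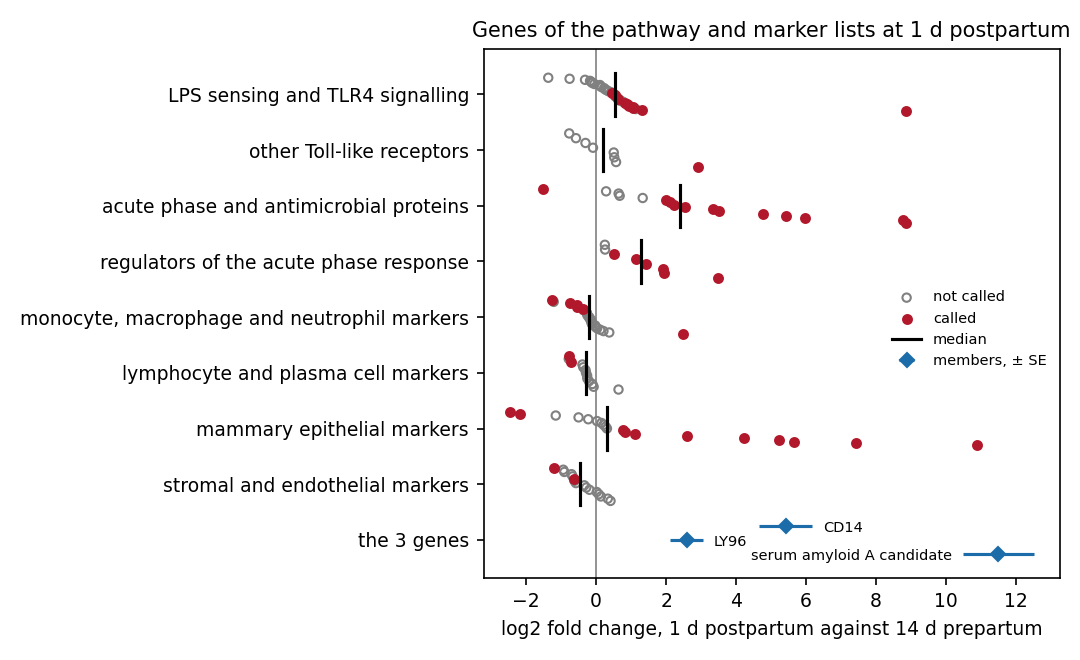
The log2 fold change in +1vs-14 of each tested gene of 8 lists (1 row per list, filled symbols called, open symbols not called, black bar the median), with the 3 members in the lowest row with their standard errors as horizontal bars. Acute phase proteins and their regulators lie mostly to the right of 0, with medians of 2.39 and 1.29, whereas the medians of the leukocyte and stromal lists lie to the left of it.

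The genes whose pattern was most like that of each member were named by the highest Pearson's r of log2 CPM over the 15 libraries, which share sows and is a description with no test. For CD14 these were SBNO2, ECM1, LCN2, RAP1GAP and SOD2, with r of 0.98 to 0.97, out of 9358 other genes with a symbol. For LY96 they were LCN2 (0.99), SQSTM1 (0.98), SOD2 (0.97), CD14 (0.97) and EFNA1 (0.97). Within the 12 prepartum libraries r fell to between -0.01 and 0.60 for the 5 genes of CD14 and to between -0.32 and 0.28 for those of LY96, so the high values rested on the postpartum libraries. SBNO2, for instance, had 46.0 to 58.3 CPM before parturition and 64.3, 170 and 171 CPM after it in sows 1, 2 and 3.

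The candidate had another set of neighbours in pattern. NUCB1, SDF4, STAP2, BRICD5 and GGCX had the highest r over the 15 libraries, 0.98 to 0.96, and r was still 0.78 to 0.91 over the 12 prepartum libraries. GGCX, the enzyme that carboxylates vitamin K-dependent proteins, had at least 50.5 CPM in each prepartum library and 176, 184 and 158 CPM after parturition. The changes of these 5 genes were small beside that of the candidate, with log2 fold changes of 0.88 to 2.51 in +1vs-14.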

How the data were processed

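Messenger RNA of 15 mammary biopsies was sequenced in single reads with a stranded kit. Per the labels and the file headers, the authors checked the reads with FastQC (0.11.15), aligned them with STAR (2.5.1b) and deposited raw counts per gene made with featureCounts (Subread 1.5.0), reverse stranded, on the Ensembl annotation of Sscrofa10.2, without normalization. The members and the gene lists were chosen with earlier results of these data known.

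Genes with at least 1 CPM in at least 3 libraries were kept and scaled by TMM. Time was tested over all 15 libraries with edgeR's quasi-likelihood fit (edgeR 4.0.16, limma 3.58.1, R 4.3.3), with Benjamini-Hochberg adjustment over 13503 genes. This model had no term for the sow, although the libraries were repeated biopsies of the same sows, and the sow entered alternatives only. A standard error is the absolute log2 fold change divided by the square root of F, and the prior count added for log2 CPM was 2. The scripts were tested on simulated counts with 200 genes changed 4-fold in +1vs-14, of which 195 were recovered, with 1 other call. The simulated libraries had no sow effect, and only genes with higher counts were changed. This recovery therefore does not carry over to genes with few reads or to repeated biopsies. Correlations used 100000 permutations, two-sided (SciPy 1.17.1). DESeq2 (1.42.0), limma-voom, other scalings and filters, the sow as a block, the 6 libraries of a comparison alone and each library left out were the alternatives.

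The sow is not in the labels. It was taken from the exact match of the total counts with the study's alignment summary for all 15 libraries. Deviations from the time point means correlated by 0.396 on average, and by at least 0.103, over 30 pairs of libraries of the same sow, and by at most 0.0298 over 60 other pairs. Each mean was that of 3 libraries, 1 per sow, which by itself pulls the other pairs below 0 when same-sow pairs correlate. The values of the other pairs are therefore no separate support for the match. Symbols came from a table of Ensembl identifiers and from the study's supplement, and 9359 of the tested genes had one. Named were the members, list genes called in -2vs-14 or +1vs-14 (up to 8 per list, all Toll-like receptor and LPS genes being eligible) and the 5 genes most like each member. STEAP4, CFB and LYZ were named after their values were seen.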

Additional observations from a re-analysis of the deposited data

How the results depend on the processing

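The increase of the 3 genes at 1 d postpartum kept its direction under every alternative run. For the candidate it moved to 8.63 in +1vs-14 and 5.66 in +1vs-2 when the counts of ENSSSCG00000013369 were added, a choice made after seeing the data, and the -2vs-14 value fell below the call, at 2.97. With each library left out in turn, the candidate ranged from 3.62 to 5.27 in -2vs-14, called in 13 of 15 fits, and from 6.59 to 7.86 in +1vs-2. Of the uncalled differences near 0, CD14 ranged from -0.14 to 0.10 in -6vs-14, and LY96 from -0.026 to 0.18 in -10vs-14, from -0.12 to 0.079 in -2vs-14 and from -0.20 to 0.0070 in -2vs-10. LY96 also changed sign in -2vs-14 under limma-voom with a random sow effect (0.0019) and in -6vs-14 without TMM (-0.065). The candidate was called in -6vs-14 by DESeq2 (3.19) and in -2vs-10 with the sow as a block (2.38). The block changed no other call of a member.

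The correlations between members in late pregnancy became 0.68, -0.73 and -0.63 without TMM, and LY96 with the candidate turned to -0.092 without the 2 farthest libraries.

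Of the LPS list, 4 genes were called in -2vs-14 by DESeq2, by limma-voom with a random sow effect and by edgeR with the block, and 3 with the 6 libraries alone, while leaving out libraries gave 1 to 6, the most without sow 1 at 1 d postpartum. In +1vs-14, 7 were called without TMM (2 higher and 5 lower), and 7 to 13 with a library left out, the fewest without sow 2 at 1 d postpartum. Of the other Toll-like receptors, 2 were called in -2vs-14 with the block, and 0 to 1 with a library left out. In +1vs-14, 2 were called by DESeq2, the random effect and the block, 4 without TMM, and 1 to 2 with a library left out. Of the acute phase list, 5 were called in -2vs-14 with the block and with the 6 libraries alone, and 1 to 4 with a library left out. Of the regulators, 3 were called in +1vs-14 without TMM, 3 to 6 with a library left out, and 0 to 1 in -2vs-14. All genes called in -2vs-14 numbered 37 to 1325 with a library left out, fewest without sow 2 at 14 d prepartum and most without sow 1 at 1 d postpartum, and 345 to 1428 under the other alternatives. In +1vs-14 all genes called numbered 2497 to 3833 with a library left out and 2215 to 5688 under the other alternatives. The cause of these shifts was not tested. The reads behind LY96 in sow 1 after parturition (34) and the candidate at 14 d prepartum (19 to 55) limit their precision.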
